A study of Mus musculus with 10 samples.

Results

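Cwc22 is 1 gene among the 44288 gene symbols that appear in at least 1 of the 10 mouse pituitary count tables. It was chosen for description by its measured level: in earlier results of these data it read far higher in some libraries than in others, across cell types. Its levels are therefore given as a description with counting intervals and with no test. The tables came from single-cell RNA sequencing of dissociated CD1 pituitaries, in which each molecule carries a unique molecular identifier (UMI) and each cell a barcode, and the study compared males with females, lactating with virgin females, and mt/hGRF transgenic with WT females. At 8 weeks of age there were 3 libraries from WT females and 3 from WT males, of which replicate 1 of each sex was made on the 10X Genomics platform and replicates 2 and 3 by Drop-seq, and 1 Drop-seq library from mt/hGRF females, whose transgene encodes human growth hormone releasing factor and is driven by a metallothionein promoter. At 13 weeks there were 1 library from a virgin WT female and 2 from lactating WT females, all by Drop-seq. All 10 libraries are labelled CD1, a stock that is outbred, so that animals differ in their genomes. Per the study's methods, the 8-week WT Drop-seq libraries pooled 2 mice each, although another passage counts 4 mice over these 4 libraries, and the number for the mt/hGRF library is given as 2 and as 3. The virgin library came from 1 mouse, and lactating replicates 1 and 2 came from 1 and 2 mice. The tables carry no animal label for cells of a pool, so the library was the unit throughout.

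CWC22 is a protein of the spliceosome, the machine that removes introns from newly made RNA. It holds the helicase EIF4A3 and helps to place it on the spliced RNA, where EIF4A3 forms the core of the exon junction complex together with MAGOH, RBM8A and CASC3. The complex marks the joins between exons and is read by later steps, among them nonsense-mediated decay, which removes transcripts with a premature stop. All cells use this machinery, and it is not known as a marker of a pituitary cell type. In mice the gene lies within a stretch of chromosome 2 that is known to vary in copy number among animals. Copy number was not measured here, and its part in any value below was not tested.

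On GRCm38 (mm10), GENCODE vM21 places Cwc22 (ENSMUSG00000027014) on the minus strand at chr2:77881159-77946375 and gives it 13 transcripts, with up to 21 exons. The non-coding gene Gm13727 shares 309 bases with the 3′ end of 1 of these transcripts, Cwc22-205, on the same strand. The coding transcripts Cwc22-201 to Cwc22-204 end between chr2:77895653 and 77895768 and do not reach Gm13727. Gm13727 was counted at 2 UMIs in the virgin library, 1 in 8-week male replicate 2 and 3 in 8-week male replicate 3, and was not listed in the other 7 tables. The longest Cwc22 coding sequence, 2724 bases, was compared with every annotated transcript. It matched 7 other genes over 2514 aligned bases at 96.9% identity: Gm13691, Gm13693, Gm13694, Gm13695, Gm13696, Gm13697 and Gm13698, all on the plus strand between chr2:83955693 and 83993045, 6.01 Mb from Cwc22. Among the 7, the matching stretch came in only 2 versions. The 2 lines that follow show the 3′-most 120 bases of the alignment without a gap, from coding positions 2347 to 2466 of Cwc22 and transcript positions 2344 to 2463 of Gm13691 (GENCODE vM21, 5′ to 3′), because they show how few bases separate the gene from its copies there. Capitals mark the 3 positions that differ.
Cwc22: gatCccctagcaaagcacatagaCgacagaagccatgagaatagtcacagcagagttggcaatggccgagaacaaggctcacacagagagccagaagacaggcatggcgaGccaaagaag
Gm13691: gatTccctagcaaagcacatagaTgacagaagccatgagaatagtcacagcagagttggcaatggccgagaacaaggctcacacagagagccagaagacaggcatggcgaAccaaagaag
The Drop-seq counts were made from uniquely mapped reads, so a read that fits several of these copies equally well was not counted. Over all 10 tables the 7 copies together held 1 UMI in kept cells, for Gm13695 in 8-week male replicate 3. Reads that fit both Cwc22 and its copies cannot be told apart in these tables, so the Cwc22 count is uncertain to that extent.

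The kept cells numbered 978 to 5256 per library, with 960289 to 5080590 UMIs per library and medians of 534 to 1246 UMIs per cell. Kept cells of the 10X Genomics libraries shared 6 barcodes, and 7 pairs of Drop-seq libraries shared 1 barcode each. The sex genes went with the labels in all 10 libraries: Xist, the RNA that silences an X chromosome, lay between 24.9 and 71.2 UMIs per 10000 in the 7 female libraries and between 0.00591 and 0.261 in the 3 male libraries. The Y-linked Ddx3y lay between 0.730 and 2.22 in males and at no more than 0.122 in females. Tsix, Eif2s3y, Kdm5d and Uty likewise did not overlap between the sexes. Among females, 8-week replicate 3 stood apart with Eif2s3y at 0.598 and Ddx3y at 0.122, against at most 0.0714 and 0.0416 in the other 6; a part of this in its Cwc22 ratio was not tested.

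Cwc22 was far apart between libraries. In order, 8-week male replicate 3 read 12.4 Cwc22 UMIs per 10000 UMIs (95% Poisson interval 11.98 to 12.9), from 2667 UMIs. The 13-week virgin library read 10.3 (9.94 to 10.7), from 2848 UMIs. 8-week male replicate 2 read 4.59 (4.18 to 5.04), from 453 UMIs. These are the 3 highest, and all are Drop-seq libraries.

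The 10X Genomics libraries followed, with 0.536 (0.466 to 0.613) in the female and 0.431 (0.376 to 0.492) in the male. The remaining 5 were Drop-seq libraries from females: 8-week replicate 2 at 0.260 (0.169 to 0.384), lactating replicate 1 at 0.254 (0.196 to 0.324), the mt/hGRF library at 0.244 (0.185 to 0.315), 8-week replicate 3 at 0.238 (0.171 to 0.323) and lactating replicate 2 at 0.115 (0.0870 to 0.149). Neighbours in this order from 8-week female replicate 2 to 8-week female replicate 3 did not differ beyond counting error, since all 3 intervals of their ratios held 1. All other neighbours did. The intervals cover counting error only, not the spread between animals or libraries. They take each UMI as an independent count, so uneven levels between cells, described below, are not covered either.

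From the lowest to the highest library Cwc22 differed by 108-fold (83.4 to 144), both by Drop-seq. On log2(UMIs per 10000 + 0.1), centred within each platform, its standard deviation over libraries was 2.34, against a median of 0.32 over the other 4897 genes with a mean of at least 0.3 UMIs per 10000. That put Cwc22 at rank 2 of them all, behind Xist. With the same 0.1 added, its ratio of the highest to the lowest Drop-seq library was 58.4, again rank 2 behind Xist, where the median gene had a ratio of 1.91 and 28 other genes reached 10.

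**Figure D1:**
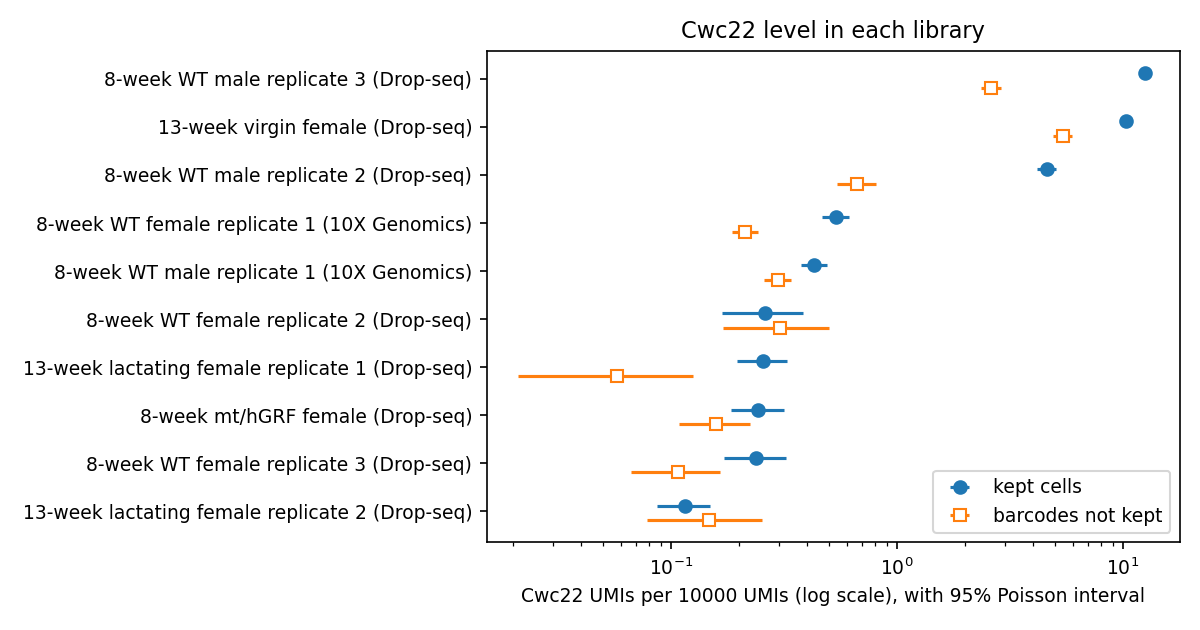
Cwc22 UMIs per 10000 UMIs (log axis) in each library, ordered by level, in kept cells (filled circles) and in barcodes that were not kept (open squares), with 95% Poisson intervals. In kept cells 3 Drop-seq libraries lie at 4.59 to 12.4 and the other 7 libraries at 0.115 to 0.536.

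Libraries of 1 group could differ widely. Within the 8-week WT males the mean was 5.83 ± 6.10 (SD, n = 3), with 0.431 in the 10X Genomics library and 4.59 and 12.4 by Drop-seq. The 8-week WT females read 0.345 ± 0.166 (SD, n = 3) and 0.249 ± 0.0159 (SD, n = 2) by Drop-seq alone. The lactating females read 0.184 ± 0.0983 (SD, n = 2). Both 8-week Drop-seq males thus lay above both 8-week Drop-seq females, and the virgin library, from a 13-week female, lay between the males. The paper's plot of male against female expression by cell type marks Cwc22, with Xist, as sex specific.

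Within pairs of 8-week libraries with the same replicate number, the male-to-female ratio of Cwc22 was 0.805 (exact 95% counting interval 0.663 to 0.977) on 10X Genomics, 17.6 (11.8 to 27.5) in replicate 2 and 52.3 (38.5 to 73.1) in replicate 3. The 10X Genomics ratio turned above 1 within cell classes: it was 1.33 (0.847 to 2.09) in Lac-gated cells, 1.04 (0.662 to 1.63) in Som-gated cells and 1.36 (0.735 to 2.53) in Mel-gated cells, each interval holding 1, while in ungated cells it was 0.490 (0.343 to 0.698). Ungated cells of the male library read 267 Malat1 UMIs per 10000 and those of the female 918, a difference whose part in the ratio was not tested. The virgin library read 40.6-fold (31.7 to 52.9) above lactating replicate 1 and 89.8-fold (69.1 to 119) above lactating replicate 2. With 1 virgin library from 1 mouse, the animal, the library and the state cannot be told apart. The mt/hGRF library read 0.936 times (0.576 to 1.56) 8-week female replicate 2 and 1.02 times (0.675 to 1.57) replicate 3, which is no difference beyond counting error.

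The same 3 libraries had the highest shares of cells with the gene. At least 1 Cwc22 UMI was found in 55.5% of kept cells of 8-week male replicate 3 (exact binomial interval 53.4 to 57.7), in 43.8% of the virgin library (42.2 to 45.4) and in 20.6% of 8-week male replicate 2 (18.1 to 23.3). The other Drop-seq libraries lay between 1.03% and 2.56%, and the 10X Genomics libraries, which are deeper, at 10.3% and 11.7%. With cells thinned to 300 UMIs each (4 and 5 shallower cells of the 10X Genomics libraries and no Drop-seq cell were omitted), the shares were 29.5%, 28.6% and 10.1% in the 3 highest libraries and 0.342% to 2.84% in the other 7.

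Barcodes that failed the cell filters carried Cwc22 in the same libraries. They read 5.40 UMIs per 10000 (4.91 to 5.92) in the virgin library, 2.61 (2.35 to 2.89) in 8-week male replicate 3 and 0.664 (0.540 to 0.806) in 8-week male replicate 2, against 0.0575 to 0.302 in the other 7 libraries. In all 3 of these libraries the kept cells read higher than the barcodes set aside. The barcodes set aside were not alike: 98274 and 98233 on 10X Genomics and 744 to 3518 by Drop-seq. In 8-week male replicate 2, 1516 of them held 1522162 UMIs, against 986421 in its 984 kept cells. Which filter each barcode failed was not tallied. Red blood cells, which have no nucleus when mature, served as a background. 8-week male replicate 2 had 0 Cwc22 UMIs in 35 Red blood-gated cells, which allows up to 0.590 per 10000. The virgin library had 5 UMIs in 27 such cells, 1.04 per 10000 (0.338 to 2.43).

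Most cell classes showed the difference between libraries, though not all stood above the barcodes set aside. Cells were gated by non-hormone markers of pituitary cell types, and a class was used in a library where it held at least 20 cells. Over libraries the median Gh level was 1389 UMIs per 10000 in Som-gated and 346 in Lac-gated cells, and the median Prl level 355 in Lac-gated and 119 in Som-gated cells. Mult-gated cells held more of both, with medians of 1757 for Gh and 1208 for Prl. Prl was not higher in Lac-gated than in ungated cells (389), and every class held RNA of both hormones, so the names stand for the gating markers. In 10 of the 11 gated or ungated sets that could be compared, the 3 highest Drop-seq libraries, as far as they had enough cells, all read above the other Drop-seq libraries. The exception was the Red blood gate. The libraries were ordered on all of these cells together, so the count describes how evenly the difference was spread and is no separate evidence for it.

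In Som-gated cells, the growth hormone lineage, Cwc22 read 19.7 in 8-week male replicate 3, 12.03 in the virgin library and 10.3 in 8-week male replicate 2, against 0.0997 to 0.508 in the other 5 Drop-seq libraries. In Lac-gated cells, set by lactotrope markers, it read 17.9 in 8-week male replicate 3 and 18.3 in the virgin library, which did not differ beyond their intervals, against 0.122 to 0.380 in the other 5. These cells of 8-week male replicate 3 held more Gh (319) than Prl (164). Lac-gated cells of 8-week male replicate 2 were too few to be used.

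Mel-gated cells, melanotropes of the intermediate lobe, read 14.3 in the virgin library, 10.2 in 8-week male replicate 3 and 5.53 in 8-week male replicate 2, and no more than 0.387 in the other Drop-seq libraries. Gona-gated cells, which make the gonadotropins, read 14.8 in 8-week male replicate 3 and 12.4 in the virgin library, and had 0 UMIs in the 3 other Drop-seq libraries with enough cells. The upper 95% limits of those 3 ran up to 2.005 per 10000, in the mt/hGRF library with 21 cells.

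The Mult, stem and macrophage gates read lower than the Som, Lac, Mel and Gona gates, where these had enough cells, in every one of the 3 high libraries. Mult-gated cells, the multi-hormone class, read 5.37, 3.49 and 2.38 in 8-week male replicate 3, the virgin library and 8-week male replicate 2. Sox2+ or FS-gated cells, stem and folliculostellate cells, read 4.12, 3.71 and 1.76. MacPh-gated cells, macrophages, read 4.37, 2.58 and 1.94. The other Drop-seq libraries stayed at or below 0.514 in these 3 sets. In the virgin library all 3 sets lay below the 5.40 of its barcodes set aside. Whether those barcodes hold broken cells or free RNA was not tested. The MacPh interval (1.94 to 3.36) of that library overlapped that of its Red blood gate (0.338 to 2.43). Cwc22 in its MacPh-gated cells was thus not told apart from the level in Red blood-gated cells. The intervals of its Mult and its Sox2+ or FS gates lay above that of the Red blood gate. Malat1 read 149 to 262 UMIs per 10000 in Mult-gated and MacPh-gated cells of the 3 high libraries and 385 to 600 in their Sox2+ or FS-gated cells, against 685 to 782 in their Som-gated cells. Its part in the lower Cwc22 level was not tested.

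The Mki67+ gate, cycling cells, behaved differently in the 2 high libraries that could be compared: 14.7 (11.1 to 19.2) in the virgin library from 32 cells and 1.03 (0.413 to 2.12) in 8-week male replicate 3 from 35 cells. These cells also differed in Malat1, a nuclear non-coding RNA, which read 646 UMIs per 10000 in the former and 117 in the latter, and in hormone RNA, with Gh at 999.5 and 130.3 and Prl at 710 and 5.57. The 1.03 of 8-week male replicate 3 lay below the 2.61 of its barcodes set aside. Stromal-gated cells read 9.22 (5.71 to 14.1) in 8-week male replicate 3, the only one of the 3 high libraries with at least 20 such cells. Ungated cells, 41.8% to 74.9% of kept cells, read 13.7, 11.7 and 4.90 in the 3 highest libraries, in the order of the whole libraries.

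**Figure D2:**
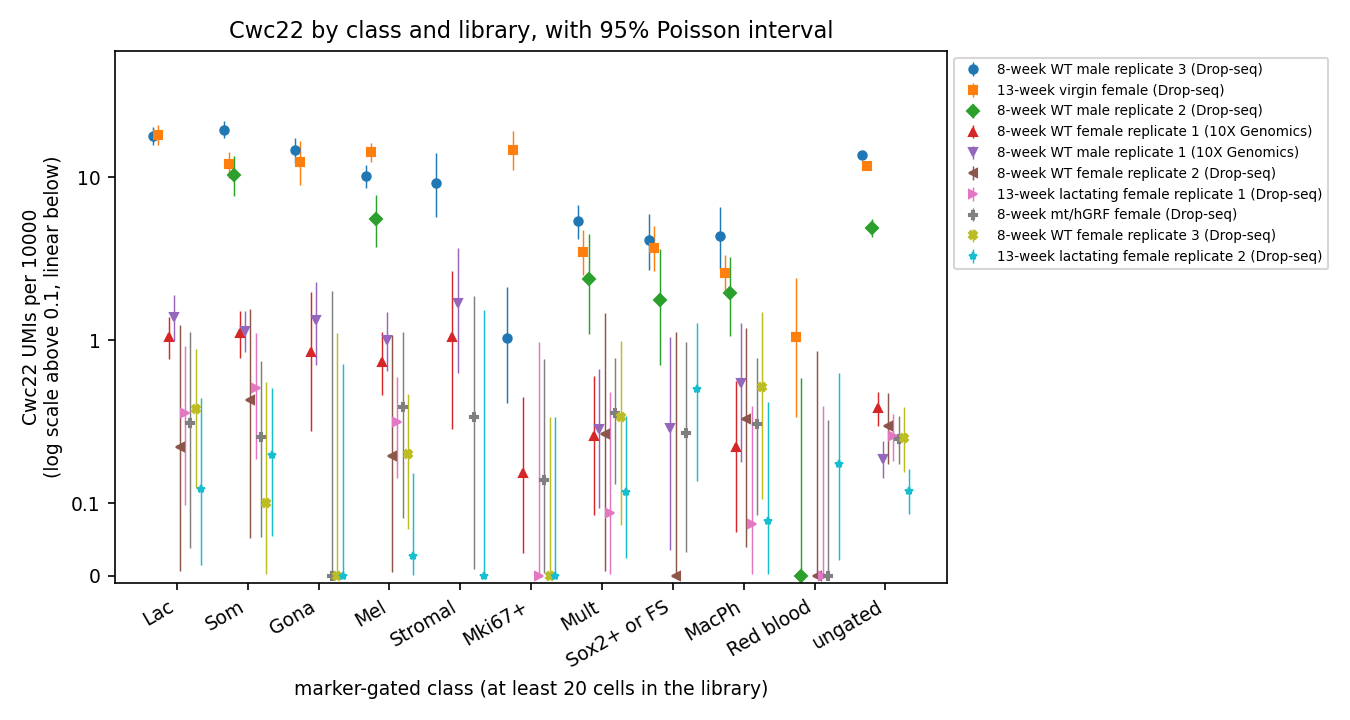
Cwc22 UMIs per 10000 UMIs by marker-gated class (columns) and library (symbols), with 95% Poisson intervals; the axis is logarithmic above 0.1 and linear below, and only classes with at least 20 cells in a library are drawn. In Som-gated cells 3 Drop-seq libraries lie at 10.3 to 19.7 and the other 5 at or below 0.508.

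On 10X Genomics the classes lay between 0.154 and 1.70. Lac-gated cells read 1.04 in the female and 1.39 in the male, Som-gated cells 1.11 and 1.15, and Mel-gated cells 0.741 and 1.01. Mult-gated cells read 0.258 and 0.286, and MacPh-gated cells 0.220 and 0.548. Gona-gated cells read 0.850 and 1.33 and Stromal-gated cells 1.05 and 1.70, which was the highest class in the male and, after Som, the next in the female; their intervals were wide, at 0.285 to 2.68 and 0.626 to 3.71. Platform and animal cannot be told apart in these 2 libraries.

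The distribution of Cwc22 over cells was examined because a high library mean can come from all cells or from some. If all kept cells of a library had 1 rate per UMI, 61.4% of cells in 8-week male replicate 3 would have had a Cwc22 UMI, and 55.5% had one. In the virgin library 46.9% was the expected share and 43.8% the observed share. In 8-week male replicate 2 the gap was larger, with 32.2% expected and 20.6% observed. That library had 781 cells with 0 Cwc22 UMIs where 667 were expected, 94 with 1 where 228 were expected, and 37 with 3 where 17.9 were expected. The 10X Genomics male library went the other way, with 193 cells at 1 UMI where 132 were expected and 13 at 2 UMIs where 25.3 were expected.

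**Figure D3:**
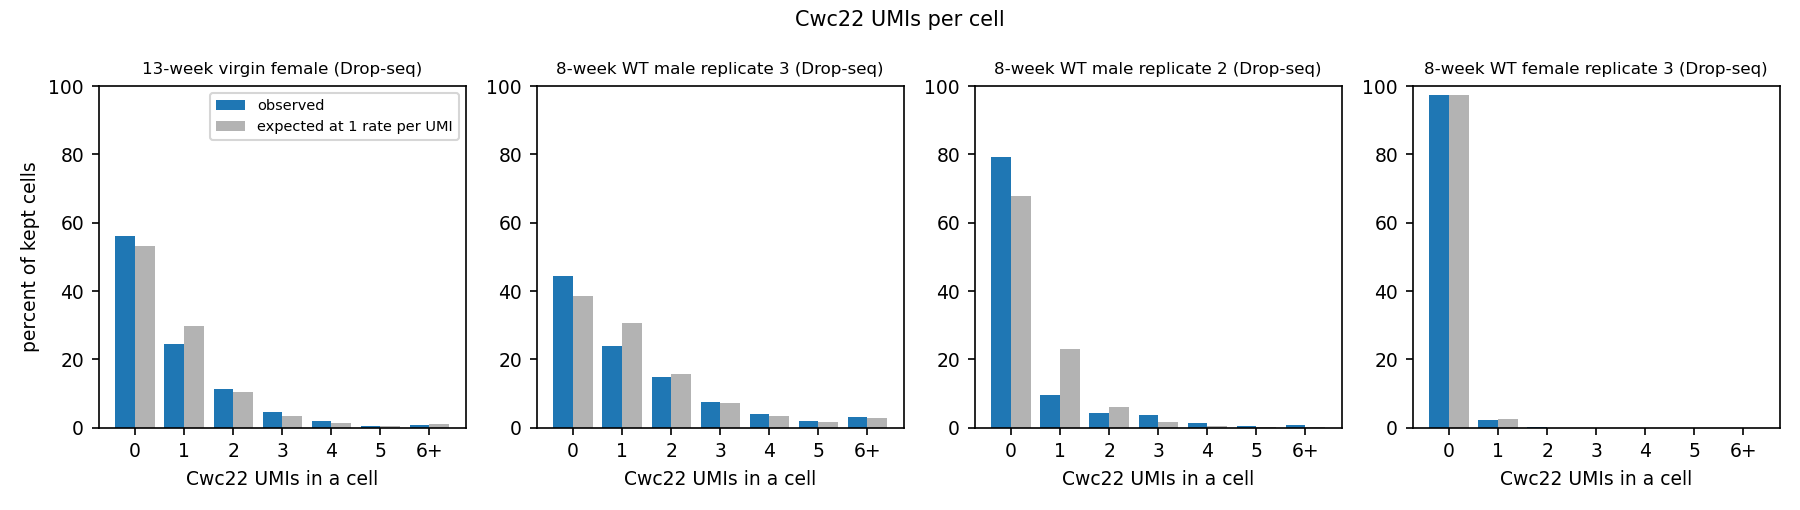
Percent of kept cells with 0 to 6 or more Cwc22 UMIs in 4 libraries (blue), beside the share expected if every cell had the library's rate per UMI (grey). In 8-week male replicate 2 the single-UMI class is far below its expected height (94 against 228 cells), and 8-week female replicate 3 is shown as a low library.

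Cells also differed in the share of Malat1, a nuclear non-coding RNA, in a cell's UMIs other than Cwc22. That share also differed between classes: in the virgin library Malat1 read 1451 UMIs per 10000 in Lac-gated and 199.5 in MacPh-gated cells. Malat1 was chosen after its values had been seen. The cells of each library were put into 3 bins of equal number by that share. Within 8-week male replicate 3, the lowest bin read 5.32 Cwc22 UMIs per 10000, the middle 16.8 and the highest 17.2. Within the virgin library the same bins read 3.08, 16.7 and 16.6. In both libraries the middle and highest bins read alike, and there the intervals of the libraries overlapped.

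8-week male replicate 2 was not flat: its bins read 0.294, 3.95 and 10.1. The 10X Genomics female read 0.147, 1.04 and 1.06 and the male 0.133, 1.09 and 1.33. In the other 5 Drop-seq libraries the highest bin lay between 0.154 and 0.325, and Malat1 as a whole was as high as 1390 and 1477 UMIs per 10000 in the 2 lactating libraries, where Cwc22 was low, against 428 to 785 in the 3 libraries with high Cwc22.

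Cells of the highest Malat1 bin with at least 800 UMIs were then compared with the zeros expected from the Cwc22 rates of 10 Malat1 bins. Those rates were taken over all kept cells, shallower ones included. In cells of at least 500 UMIs the virgin library read 9.28, against 10.3 in all kept cells. 8-week male replicates 2 and 3 read 4.62 and 12.4 there, against 4.59 and 12.4. The part of depth in the zeros was not tested. In 8-week male replicate 2, 66 of 136 such cells had no Cwc22 UMI, or 48.5% (39.9 to 57.2), where 27.7% was expected. In the virgin library the share was 22.7% (16.4 to 30.2) with 17.6% expected, and in 8-week male replicate 3 it was 17.2% (13.1 to 21.9) with 13.7% expected, both within their intervals. In the other 7 libraries the expected share also lay within the interval of the observed share. Outside the highest bin, an excess stood in 1 of the 2 remaining bins of each high library: 20.4% (16.1 to 25.4) with 13.3% expected in the middle bin of 8-week male replicate 3, 63.9% (54.7 to 72.4) with 54.4% expected in that of replicate 2, and 72.6% (68.3 to 76.6) with 65.8% expected in the lowest bin of the virgin library. In the other bin of each the expected share lay within the interval.

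A mixture of 2 Poisson rates fitted to the highest bin of 8-week male replicate 2, as a description, placed 44.6% of cells at 20.7 Cwc22 UMIs per 10000 and the rest at 1.03. In 8-week male replicate 3 it placed 87.8% at 19.3 and the rest at 1.92, and in the virgin library 68.2% at 21.5 and the rest at 5.95. These fitted rates and shares carry no interval, and differences between them were not tested. Within classes of 8-week male replicate 2, against 1 rate per UMI for the class, 40.4% of the 47 Som-gated cells had a Cwc22 UMI (26.4 to 55.7) where 59.0% was expected, and 17.8% of ungated cells (14.9 to 21.0) where 29.7% was expected. In its Mel-gated, Mult-gated, MacPh-gated and Sox2+ or FS-gated cells the expected share lay within the interval. In the other 2 high libraries it lay above the interval in ungated cells of the virgin library (43.9%, 42.0 to 45.8, with 47.3% expected) and in ungated (53.7%, 51.1 to 56.4, with 60.7%) and Mel-gated cells (64.4%, 53.4 to 74.4, with 75.04%) of 8-week male replicate 3, and within it in their other classes. The cells of 8-week male replicate 2, a pool per the methods, carry no animal label, and the part of single animals in the mixture was not tested.

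**Figure D4:**
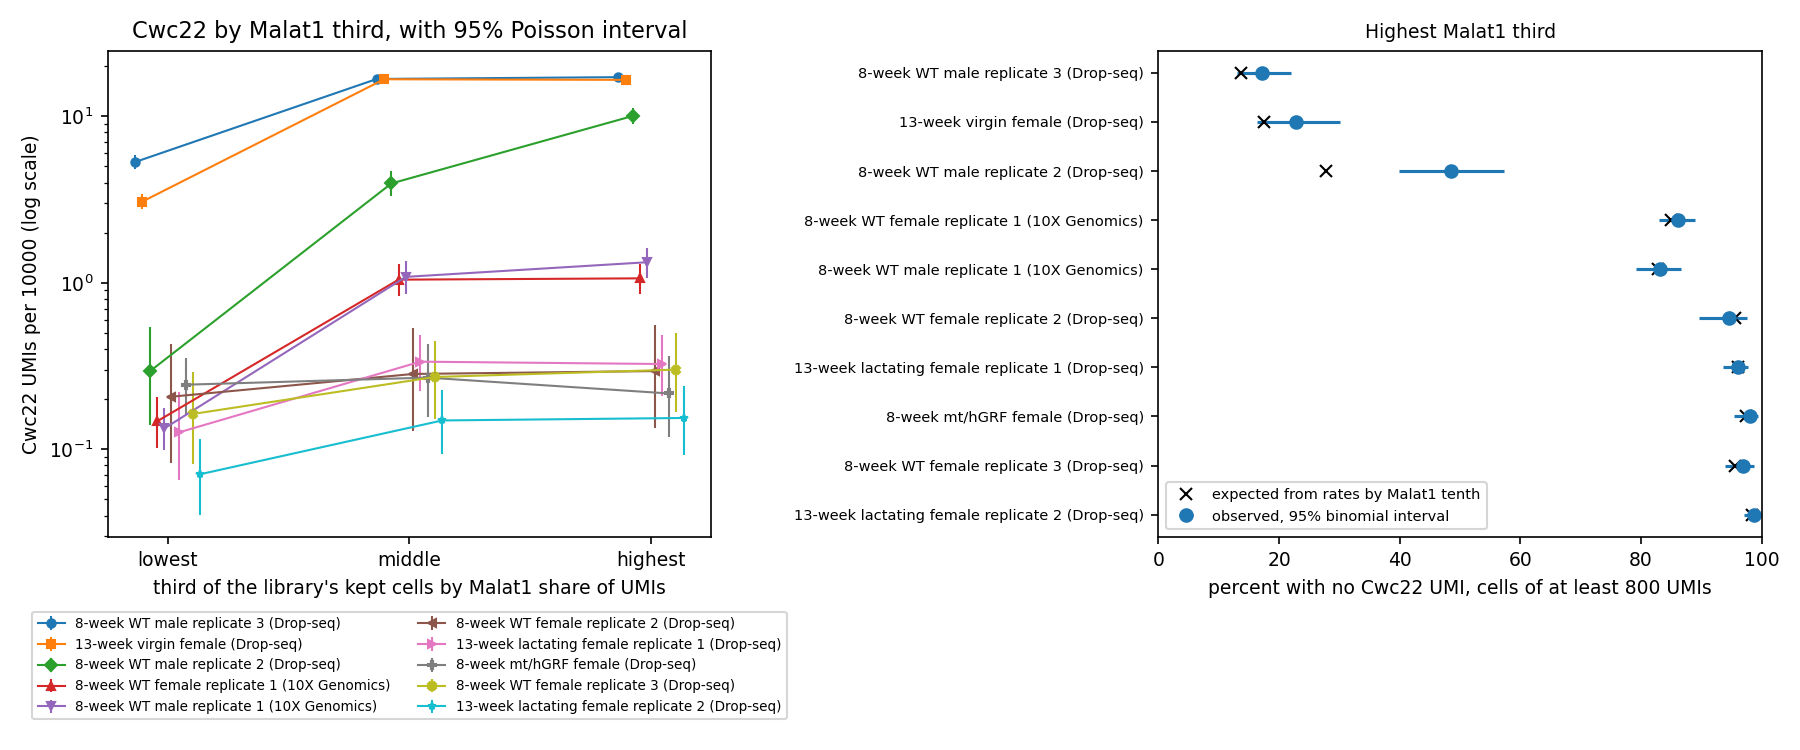
Left, Cwc22 UMIs per 10000 (log axis) in the lowest, middle and highest bin of each library's kept cells by Malat1 share, with 95% Poisson intervals; right, percent of cells of at least 800 UMIs in the highest bin with no Cwc22 UMI (circles, 95% binomial interval) and the percent expected from rates in 10 Malat1 bins (crosses). In this bin only 8-week male replicate 2, at 48.5% against 27.7%, has its cross outside the interval.

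Genes that follow the same libraries were ranked by Pearson's r with Cwc22 over the 10 libraries, on log2(UMIs per 10000 + 0.1) centred within platform and with no p, because Cwc22 was chosen on these libraries. The points share library depth and cell composition. Of 4897 genes compared, 1 had r of at least 0.9 and 0 had r of -0.9 or below. When 1 library was left out the count ran from 2 to 11. The gene was Ly6h (r = 0.93, and 0.89 by Spearman's rho, under the limit), a member of the Ly6 family of small surface proteins. It read 2.56 UMIs per 10000 in the virgin library, 2.31 in 8-week male replicate 3 and 1.71 in 8-week male replicate 2, against 0.580 to 1.22 in the other Drop-seq libraries, with no overlap. The 10X Genomics libraries both read 1.87. Ly6h was picked by its r over these libraries, so the lack of overlap follows in part from that choice. The share of all compared genes without overlap was not taken.

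The next 9 genes that varied at least 2-fold over all 10 libraries, platforms included, were Vgll4 (r = 0.89), Mettl7a1 (0.89), Faap20 (0.88), Whrn (0.87), Taok3 (0.85), Rhbdd2 (0.85), Fam171b (0.84), Actn1 (0.84) and 6330403K07Rik (0.84). The lowest were Pak3 (r = -0.81), Gnl3 (-0.78) and Sars (-0.77), which encode a kinase, a nucleolar protein and the seryl-tRNA synthetase. Over the Drop-seq libraries alone, with the same 0.1 added, the highest-to-lowest ratios of the 13 genes lay between 1.31 (Rhbdd2) and 3.92 (Ly6h), against 58.4 for Cwc22. Vgll4, Mettl7a1, Faap20, Taok3, Rhbdd2, Gnl3 and Sars were under 2-fold there.

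Fam171b is the only one of these 13 genes on chromosome 2, and the share of all compared genes on that chromosome was not taken. It lies at chr2:83812636-83883486 on the plus strand, 72.2 kb from the nearest of the 7 Cwc22 copies and 5866 kb from Cwc22 itself. It read 1.30 UMIs per 10000 in 8-week male replicate 3, 0.935 in the virgin library and 0.720 in 8-week male replicate 2, while the remaining Drop-seq libraries spanned 0.290 to 0.667, and it read 0.224 and 0.278 on 10X Genomics. The 3 libraries highest in Cwc22 were also the 3 highest in Fam171b, without overlap, but 8-week female replicate 3 at 0.667 came close. Fam171b was also named for its r over these libraries, so this order follows in part from that choice. How many of all compared genes share the order was not counted. Its r over the alternatives lay between 0.71 and 0.91.

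The other annotated neighbours did not share the pattern. The 5 nearest genes on each side with a mean of at least 0.3 UMIs per 10000 were Ccdc141, Ttn, Fkbp7, Osbpl6 and Nfe2l2 at lower coordinates and Ube2e3, Dnajc10, Nckap1, Zc3h15 and Fam171b at higher ones, and 88 other annotated genes within that span were below the minimum. The closest on each side lay 710.5 kb (Ccdc141) and 921.7 kb (Ube2e3) from Cwc22, so the stretch nearer to it was not read by these genes. Without Fam171b, r ran from -0.42 for Ttn to 0.46 for Ube2e3. Zc3h15, the nearest of them to Fam171b, was nearly level over all libraries at 0.948 to 1.35 UMIs per 10000 (r = -0.14). Ube2e3, the nearest at higher coordinates, read 0.297, 0.364 and 0.426 in the virgin library and 8-week male replicates 3 and 2, while the remaining Drop-seq libraries spanned 0.151 to 0.377.

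**Figure D5:**
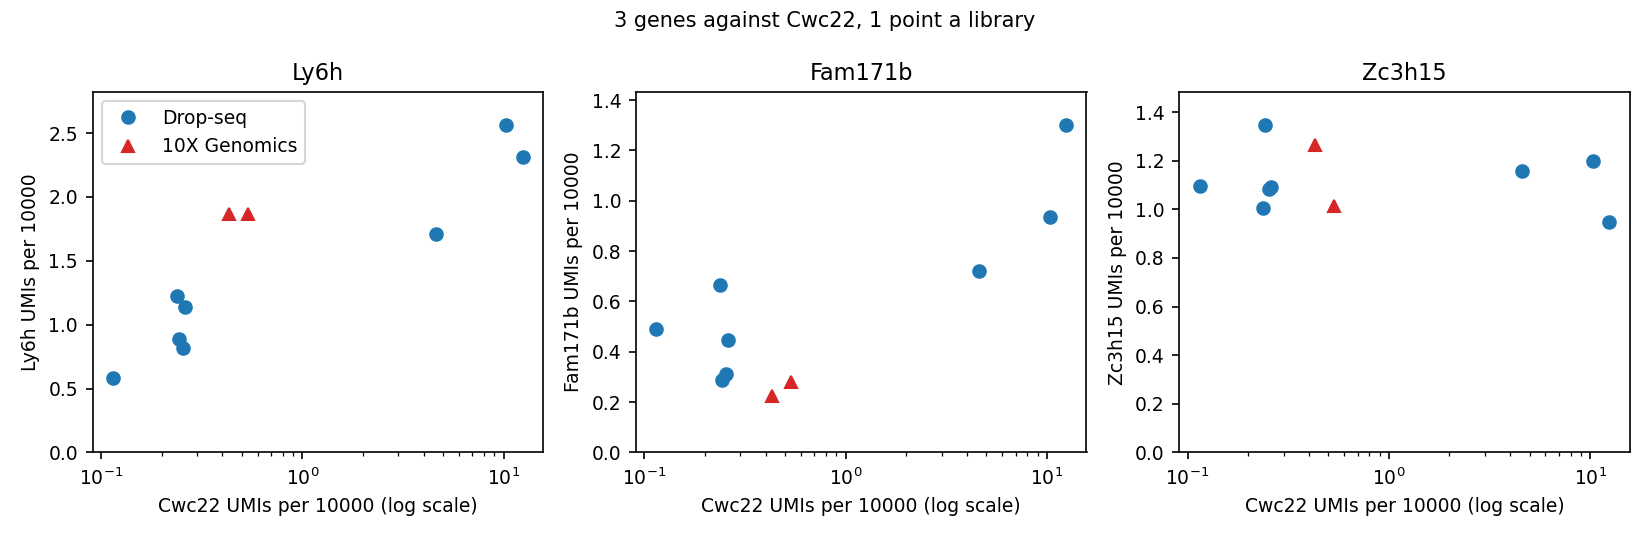
UMIs per 10000 of Ly6h, Fam171b and Zc3h15 against Cwc22 (log axis), 1 point for each library, with Drop-seq as circles and 10X Genomics as triangles. Among Drop-seq libraries Ly6h and Fam171b, both named for their r over these libraries, are highest in the 3 with high Cwc22. The 10X Genomics libraries read 1.87 for Ly6h, above the 1.71 of 8-week male replicate 2. Zc3h15 stays between 0.948 and 1.35.

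The core genes of the exon junction complex varied less between libraries than Cwc22. With 0.1 added, their highest-to-lowest ratios over all 10 libraries were at most 3.37, against 58.4 for Cwc22. Such ratios, platforms included, reached 10.85 among genes bound to the complex or acting in decay (Acin1) and 8.86 among spliceosome partners (Srrm2). Eif4a3, the helicase that CWC22 holds, read 0.605 UMIs per 10000 in the virgin library and 0.497 and 0.490 in 8-week male replicates 2 and 3, within the 0.203 to 0.832 of all 10 libraries (r = 0.17). Rbm8a read 0.7002 to 1.16 (r = 0.54), Magoh 0.230 to 1.01 (r = 0.40) and Casc3 0.273 to 0.831 (r = -0.01). Magohb, the copy of Magoh, was below the minimum level, at 0.105 to 0.314. None of the 5 core genes had its 3 highest values in the libraries with high Cwc22. The share of all compared genes that did was not taken, so this is not read as a result about the 5.

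The design's 3 comparisons were tested across all genes on the summed UMIs of each library with edgeR's quasi-likelihood test. The virgin and mt/hGRF groups had 1 library each and so no spread of their own. A shared estimate of spread, from the groups with more than 1 library, served all 3 comparisons. Among 14733 genes tested, 17 passed a Benjamini-Hochberg adjusted p of 0.05 between 8-week WT males and females, which is 0.115% of genes, 1 between lactating and virgin females, which is 0.00679%, and 11 between mt/hGRF and WT females, which is 0.0747%. Leaving out 1 library moved these counts to 9 to 19, 1 to 6 and 0 to 62, with 0 for the transgene without 8-week female replicate 3 and 62 without 8-week female replicate 2. With the replicate number as a block, in the 8-week WT libraries alone, 31 of 11537 genes passed for sex. Of the 59 genes of the exon junction complex, decay, spliceosome and related-domain lists, 0 passed in any of the 3 comparisons, and 0 passed by DESeq2. In the fit with the block 58 of them were tested and 0 passed. At an unadjusted p of 0.05 the counts of the 59 were 0 for sex, 1 for lactation and 5 for the transgene by edgeR, and 0, 1 and 2 by DESeq2. Of all 14733 genes, 606 (4.11%), 473 (3.21%) and 1222 (8.29%) had an unadjusted p under 0.05 by edgeR. The share over all genes was not taken for DESeq2.

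The 5 core genes of the exon junction complex did not pass in any direction. Eif4a3 differed by -0.18 (SE 0.26, log2 scale) between males and females, by -0.50 (SE 0.36) between lactating and virgin females, and by 0.76 (SE 0.35) between mt/hGRF and WT females, with adjusted p from 0.600 to 1. The median log2 change of the 5 core genes was 0.20 for sex, -0.41 for lactation and 0.12 for the transgene, beside medians over all genes of 0.01, 0.01 and -0.04. The 16 genes bound to the complex or acting in decay had medians of 0.20, 0.26 and 0.25, the 30 spliceosome partners 0.12, 0.14 and 0.22, and the 8 relatives that share the MIF4G or MA3 domains of CWC22 0.07, 0.34 and 0.04. No gene of these lists passed in either direction in any of the 3 comparisons at this depth, which does not show that they were equal.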

How the data were processed

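The authors deposited raw UMI counts per gene and barcode for 10 libraries, with no normalization. Per the paper, Drop-seq reads were mapped to mm10 (Gencode vM13) and unique exonic reads counted on their strand. The submitters' notes name STAR 2.5.2a and Cell Ranger. The study's cell limits were applied: a Drop-seq cell needed 300 UMIs or more and 100 to 4000 genes, a 10X Genomics cell over 200 and under 3000 genes, and both a mitochondrial share below 0.1. From its Drop-seq cells the study also removed clusters of red blood, NK, low-quality and doublet cells. Such clusters were not removed here, and no doublet caller was run. Counts were summed over kept cells and divided by their UMIs, times 10000. Cells were gated by marker lists (at least 2 UMIs from 2 markers, at least 3 times the library average, and at most 0.5 of the best score for the next class); this scoring was set after the data were seen, and 22.1% of gated cells stood at the 2-UMI minimum. Genes were named as Cwc22, its lists, the 10 highest and 3 lowest r, and 5 neighbours a side. Members and lists were chosen with earlier results of these data known.

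Contrasts used edgeR 4.0.16 (R 4.3.3) on all 10 libraries, with group and platform as terms, TMM and 24767 symbols found in the 10X Genomics list and at least 1 Drop-seq table. DESeq2 1.42.0 was an alternative. The edgeR script was tested on simulated data. Same-numbered 8-week libraries deviated together over 11537 genes (r = 0.88, 0.56 and 0.70), so the replicate block is given; these values include the platform difference, and r was 0.34 over the Drop-seq pairs alone. The titles of each Drop-seq pair share a number whose meaning the labels do not give. Copies were found with blastn 2.17.0+ (at least 90% identity over 100 bases). P-values measure spread between libraries of the groups with more than 1 library, which is partly technical.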

Additional observations from a re-analysis of the deposited data

Results flagged for a closer look

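The male-to-female ratio of Cwc22 in 8-week WT pairs lay below 1 on 10X Genomics (0.805) and above 1 in both Drop-seq pairs (17.6 and 52.3). The opposite directions brought this up, the difference between platforms was not tested, and the 10X Genomics direction turned in Lac-gated and Som-gated cells.

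Cwc22 was also read in barcodes outside the kept cells, above the upper limit of the 8-week WT female libraries, in the virgin library (5.40 UMIs per 10000), 8-week male replicate 3 (2.61) and 8-week male replicate 2 (0.664). Whether these barcodes hold broken cells or free RNA was not tested.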

How the results depend on the processing

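With all deposited barcodes the ratio of 8-week male replicate 3 to lactating replicate 2, 108 in kept cells, was 71.2 (the virgin library was then highest, at 9.16 UMIs per 10000 against 8.53) and the male-to-female ratio of replicate 2 was 8.04. In Lac-gated cells alone these were 147 and 41.5, and the virgin library, the highest there, read 150-fold above lactating replicate 2; the 147 and 150 rest on 2 UMIs in lactating replicate 2, and the 41.5 on 19 male cells, under the minimum of 20, and 1 female UMI. In Som-gated cells alone the replicate 3 ratio was 197, and the virgin ratios to lactating replicates 1 and 2 were 23.7 and 60.7, with 1 to 6 UMIs in each lower library. In the highest Malat1 bin, chosen after seeing the data, the replicate 2 ratio was 34.1. The 10X Genomics ratio, 0.805, was 1.18 with all barcodes, 1.18 as a mean over cells, 1.33 in Lac-gated cells, 1.04 in Som-gated cells and 1.25 in the highest Malat1 bin, so its direction depends on these choices. The other male-to-female and virgin-to-lactating ratios stayed above 1 under every alternative run, while the mt/hGRF ratios, whose intervals hold 1, fell on either side of it.

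The count of genes with r of at least 0.9 was 6 in the Drop-seq libraries alone, 5 by Spearman rho, and 2 to 11 when 1 library was left out, the 11 without the virgin library. Genes called for sex numbered 76 without a filter on low counts, 31 with the replicate block, 11 in the 8-week libraries alone with platform, and 9 to 19 leaving out 1 library, the 9 without either 10X Genomics library. For lactation 5 passed by DESeq2, 40 unfiltered and 1 to 6 leaving out 1, the 6 without 8-week male replicate 3. For the transgene 24 passed by DESeq2, 205 unfiltered and 0 to 62 leaving out 1, with 0 without 8-week female replicate 3 and 62 without 8-week female replicate 2. The causes were not tested.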
